A study of Arabidopsis thaliana with 12 samples.

Results

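The genes described here had higher transcript levels in hai1-2 than in Col-0 seedlings at low water potential in each of 3 independent experiments. hai1-2 is a mutant of HAI1 (At5g59220) in the Col-0 background of Arabidopsis thaliana. Seedlings 7 days old, grown on agar without sugar in continuous light, were moved either to low water potential, -1.2 MPa, on agar infused with polyethylene glycol, or to new agar of the unstressed -0.25 MPa, and whole seedlings were collected 96 h later. The groups were hai1-2 at -1.2 MPa, Col-0 at -1.2 MPa, hai1-2 at -0.25 MPa and Col-0 at -0.25 MPa, with 3 one-colour Affymetrix arrays each, and the replicate number is that of the experiment. Whole seedlings mix root and shoot, so more cells of a type and more transcript per cell cannot be told apart, and 1 mutant allele was measured.

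Members were chosen from the measured values. A probe set needed 1 gene in the platform annotation, a mean intensity of at least 200 in hai1-2 at -1.2 MPa, and a value in hai1-2 at least 0.5 above Col-0 on log2(intensity + 16) in each of experiments 1, 2 and 3 at -1.2 MPa. Of 22810 probe sets, 13513 had 1 gene, 6039 of these reached the level, and 26 also met the differences. From these 26, 4 were left out because they lay below 200 on all control arrays and above 600 on all stressed arrays, 4 because they are LEA or COR genes, and the alpha-amylase AMY1 because the selection excludes it by name. No ATG, ALDH or UGT symbol was among them. The remaining 17 probe sets stand for 17 genes, and all 17 passed the filter on dim probe sets used for the tests. With the sign turned, 19 single-gene probe sets were lower in hai1-2 by the same 0.5, against the 26 that were higher. Both counts used the minimum of 200 in stressed hai1-2, which favours genes that are high there, so they are not directly comparable.

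HAI1 is a protein phosphatase of clade A of the type 2C family. In unstressed cells such phosphatases hold SnRK2 kinases inactive, and abscisic acid (ABA), the hormone that accumulates when water is short, binds receptors that in turn block the phosphatases. The released kinases phosphorylate transcription factors of the ABF and AREB type, which bind ABA response elements and switch on genes of dehydration tolerance. HAI1 itself is among the transcripts that ABA and drought raise, and it is known as a brake on part of the response to low water potential. HAI1 is not named in the platform annotation, and the mutant label was not checked against its transcript here.

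Most of the 17 genes were genes that low water potential raised in both genotypes. Averaged over the genotypes, 13 of the 17 rose at -1.2 MPa against -0.25 MPa, where 27.9% of the 17059 probe sets tested rose, and 2 fell, where 22.8% fell (limma, adjusted p under 0.05). The other 2 did not pass. The median of this averaged response was 2.21 over the 17 genes and 0.07 over all probe sets tested. An averaged rise of at least 2 on the log2 scale was found for 10 of the 17 and for 1.87% of all tested. The 6 stressed arrays lay wholly above or wholly below the 6 control arrays for 14 of the 17 genes, against 30.5% of all tested, and wholly above for 13, against 16.2% of all tested. The averaged response is a separate contrast from the genotype difference that chose the genes, but it uses the same stressed arrays. The minimum of 200 in stressed hai1-2 favours genes that are high under stress, and the shares over all tested have no such minimum. For the 9 of the 17 with a mean below 100 in both genotypes on control plates, this minimum required a rise in hai1-2. They are AT5G05220, AT1G04560, AT4G12580, AT5G66780, AT4G31830, AT5G07330, AT5G45630, AT5G04380 and AT5G39520. Their adjusted p for the averaged response is thus no separate support for a rise.

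**Figure D1:**
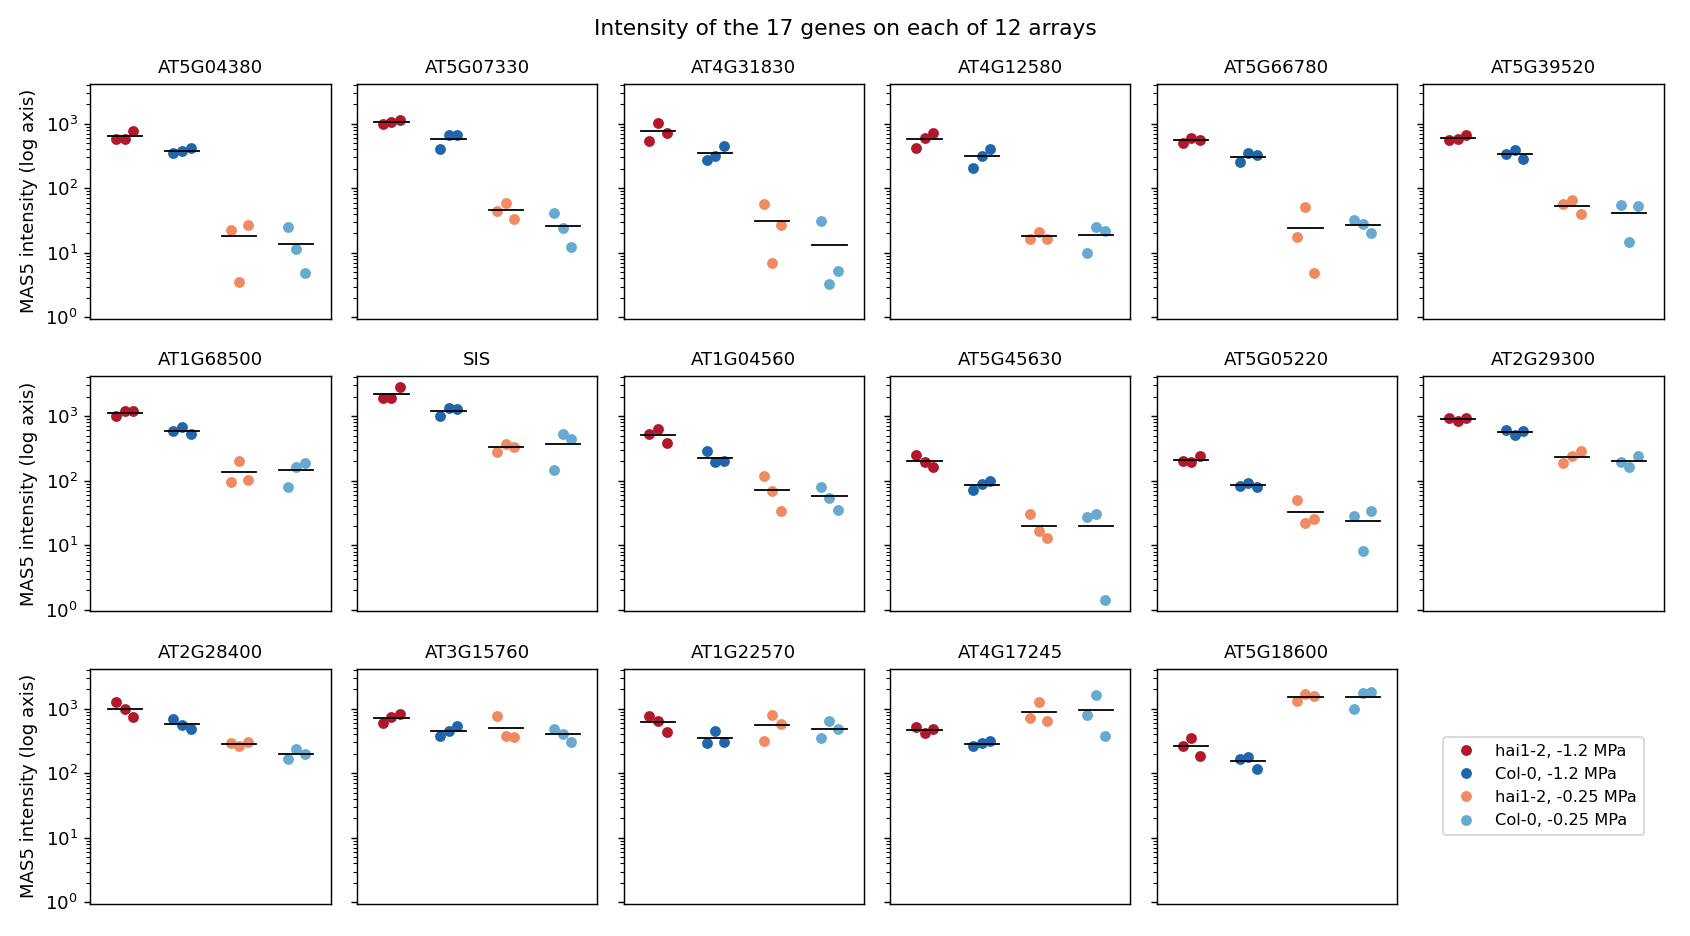
MAS5 intensity (log axis) of each of the 17 genes on the 3 arrays of hai1-2 at -1.2 MPa, Col-0 at -1.2 MPa, hai1-2 at -0.25 MPa and Col-0 at -0.25 MPa, ordered by the response averaged over genotypes; points are arrays in the order of experiments 1, 2 and 3 and lines are group means. In 13 panels both stressed groups lie above both control groups, and in the panel of AT5G18600 they lie below them.

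Only 1 of the 17 carries a gene symbol in the reference. It is SIS, named there as Salt Induced Serine rich. SIS measured 1901.6, 1891.2 and 2844.6 in stressed hai1-2, against 990.2, 1319.2 and 1311.9 in stressed Col-0. On control plates it stood at 283.1, 363.8 and 337.6 in hai1-2 and 147.3, 525.5 and 446.7 in Col-0, so the genotypes overlapped there. They did not overlap under stress, in the contrast that chose the gene. The rise averaged over genotypes was 2.25 ± 0.24 (SE, 6 arrays per water potential, adjusted p = 3.86e-06). It was 2.68 ± 0.34 in hai1-2 and 1.82 ± 0.34 in Col-0, given as a description, because both hold the stressed arrays that chose the gene. The roles of the other 16 are not named in the annotation, and those given here are general knowledge of the loci.

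AT1G04560 belongs to a family of plasma membrane proteins first found in ABA-treated wheat cells. It measured 522.0, 635.4 and 381.8 in stressed hai1-2, against 287.6, 195.5 and 198.6 in stressed Col-0. On control plates it stood at 117.1, 68.3 and 33.6 in hai1-2 and 80.9, 54.1 and 35.8 in Col-0. Every stressed array was thus above every control array, and the largest gap between genotypes was in experiment 2, at 1.62, with 0.83 and 0.89 in experiments 1 and 3. The averaged rise was 2.21 ± 0.23 (adjusted p = 3.14e-06).

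AT5G45630 and AT2G28400 both encode proteins of a family related to plant senescence regulators. AT5G45630 measured 251.1, 196.1 and 165.1 in stressed hai1-2, against 72.5, 89.8 and 98.4 in stressed Col-0. Its control intensities of 30.7, 16.7 and 12.9 in hai1-2 and 27.1, 30.5 and 1.4 in Col-0 lie around the added constant of 16, and its rise of 2.13 ± 0.24 (adjusted p = 6.24e-06) moved with that constant. It was 1.27 with 64 added and 3.06 with 1 added. AT2G28400 was clearly present without stress, at 294.6, 260.6 and 305.2 in hai1-2 and 165.2, 238.6 and 199.9 in Col-0. Under stress it reached 1253.4, 979.2 and 754.8 in hai1-2, against 697.0, 565.3 and 479.9 in Col-0, an averaged rise of 1.58 ± 0.14 (adjusted p = 5.97e-07). AT2G28400 was 1 of the 17 genes, and the only one, whose hai1-2 and Col-0 groups did not overlap on control plates, against 6.41% of all tested.

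Of the genes that rose, 2 encode enzymes. AT5G04380 encodes a methyltransferase of the family that methylates small carboxylic acids such as salicylic, jasmonic and nicotinic acid, and AT2G29300 a short-chain dehydrogenase resembling tropinone reductases. AT5G04380 had the largest averaged rise of the 17, 4.08 ± 0.21 (adjusted p = 3.24e-09). With 64 added before the log its rise was 2.82, below the 3.10 of AT5G07330, and with 1 added it was 5.21. AT5G04380 measured 585.8, 579.9 and 774.1 in stressed hai1-2, against 346.6, 381.3 and 416.9 in stressed Col-0. On the control arrays it lay between 3.5 and 27.3 in hai1-2 and between 4.8 and 25.0 in Col-0, near the lower end of the scale in both genotypes. The minimum of 200 in stressed hai1-2 thus required AT5G04380 to rise in hai1-2. AT2G29300 varied least among experiments. It stood at 925.1, 826.4 and 923.1 in stressed hai1-2, against 600, 514.4 and 591.7 in stressed Col-0, and the gap was 0.61, 0.67 and 0.63 in experiments 1, 2 and 3. Its control intensities were 236 ± 48.0 in hai1-2 and 199 ± 39.7 in Col-0 (SD, n = 3), and its averaged rise was 1.66 ± 0.12 (adjusted p = 1.00e-07).

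For the other genes that rose no role is given. AT5G07330 measured 980.6, 1073.0 and 1133.2 in stressed hai1-2, against 411.1, 666.9 and 672.3 in stressed Col-0. Its control intensities were 44.2, 59.4 and 33.1 in hai1-2 and 40.6, 24.2 and 12.5 in Col-0. It rose by 4.01 ± 0.18 on average (adjusted p = 9.23e-10). AT4G31830 rose by 3.95 ± 0.29 (adjusted p = 8.83e-08) and was uneven in stressed hai1-2, at 545.6, 1025.3 and 723.8, against 278.0, 319.4 and 445.8 in stressed Col-0. Its gap was 1.63 in experiment 2, against 0.93 and 0.68 in experiments 1 and 3. On control plates it lay between 7.0 and 57.1 in hai1-2 and between 3.3 and 31.5 in Col-0. With 64 added before the log the rise was 3.10 for AT5G07330 and 2.77 for AT4G31830, and with 1 added 4.55 and 5.06.

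AT4G12580 rose by 3.66 ± 0.19 (adjusted p = 3.15e-09). It measured 418.6, 598.4 and 717.9 in stressed hai1-2, against 207.4, 318.3 and 409.2 in stressed Col-0. In both genotypes the lowest stressed value was that of experiment 1 and the highest that of experiment 3, and the gap between genotypes was nearly the same in all 3, at 0.96, 0.88 and 0.79. AT5G66780 rose by 3.45 ± 0.22 (adjusted p = 2.68e-08), with 506.9, 593.2 and 557.7 in stressed hai1-2, against 257.2, 348.0 and 323.1 in stressed Col-0. Both were near the lower end of the scale on control plates, AT4G12580 at 18.0 ± 2.80 in hai1-2 and 18.8 ± 8.04 in Col-0, and AT5G66780 at 24.5 ± 23.7 in hai1-2 and 26.7 ± 5.90 in Col-0 (SD, n = 3). With 64 added before the log the rise was 2.55 for AT4G12580 and 2.43 for AT5G66780, and with 1 added 4.46 and 4.22.

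AT5G39520 measured 564.6, 569.7 and 677.8 in stressed hai1-2, against 336.3, 390.0 and 285.2 in stressed Col-0, and rose by 2.94 ± 0.20 on average (adjusted p = 3.97e-08). AT1G68500 measured 1005.1, 1184.2 and 1221.5 in stressed hai1-2, against 588.1, 683.0 and 523.4 in stressed Col-0, and rose by 2.50 ± 0.20 (adjusted p = 2.06e-07). For both the widest gap between genotypes was that of experiment 3, at 1.204 for AT5G39520 and 1.198 for AT1G68500. The smallest of its 3 gaps was larger for AT5G05220 than for any other of the 17, at 0.94. It measured 200.5, 193.9 and 240.7 in stressed hai1-2, against 83.0, 93.7 and 80.7 in stressed Col-0. The distance between the groups was thus wider than the spread within either, in the contrast that chose the gene. It averaged 33.0 ± 15.4 in hai1-2 and 23.4 ± 13.5 in Col-0 on control plates (SD, n = 3), and its averaged rise was 1.84 ± 0.20 (adjusted p = 4.41e-06). With 64 added before the log that rise was 1.15, and with 1 added it was 2.38.

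The remaining 4 genes did not pass as rises at low water potential. AT5G18600, a gene of the glutaredoxin family of small redox proteins, was among the transcripts that stress lowered. It measured 264.6, 356.3 and 184.4 in stressed hai1-2 and 165.6, 176.5 and 114.8 in stressed Col-0, against 1331.0, 1663.3 and 1553.8 in hai1-2 and 1003.4, 1775.7 and 1818.3 in Col-0 on control plates. The averaged change was -2.82 ± 0.18 (adjusted p = 2.51e-08), at -2.47 ± 0.26 in hai1-2 and -3.17 ± 0.26 in Col-0, so higher in stressed hai1-2 here meant a smaller estimated fall. AT4G17245, which encodes a protein with a RING domain, as many ubiquitin ligases have, fell too, with an averaged change of -1.12 ± 0.27 (adjusted p = 0.00336). Its stressed values were 515.0, 420.2 and 487.3 in hai1-2, against 261.7, 289.8 and 312.7 in Col-0. On control plates it was scattered, from 643.0 to 1275.0 in hai1-2 and from 383.3 to 1626.4 in Col-0.

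Neither AT1G22570 nor AT3G15760 passed the test of the averaged response. AT1G22570, a transporter of the nitrate and peptide family, stood at 760.9, 653.7 and 440.8 in stressed hai1-2, against 291.9, 448.4 and 303.7 in stressed Col-0. It was the only one of the 17 whose stressed groups overlapped. The other 16 did not overlap, as 14.1% of all tested did not, in the contrast that chose them. The overlap was narrow, since 440.8 in hai1-2 lies below 448.4 in Col-0, arrays of different experiments. On control plates it measured 314.3, 804.0 and 578.4 in hai1-2 and 345.5, 632.1 and 478.8 in Col-0, and its averaged response was -0.13 ± 0.22 (adjusted p = 0.651). The estimates had opposite signs, 0.19 ± 0.32 in hai1-2 and -0.45 ± 0.32 in Col-0. AT3G15760 measured 589.6, 734.4 and 820.1 in stressed hai1-2, against 377.6, 450.5 and 533.4 in stressed Col-0, with an averaged response of 0.37 ± 0.19 (adjusted p = 0.117). Without replicate 1 of hai1-2 at -0.25 MPa, where it measured 782.5 against 374.4 and 367.2 on the others of that group and 487.6, 407.7 and 308.8 in Col-0, the response was 0.54 and passed (adjusted p = 0.00672). Over all alternatives its adjusted p lay between 0.00672 and 0.256.

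**Figure D2:**
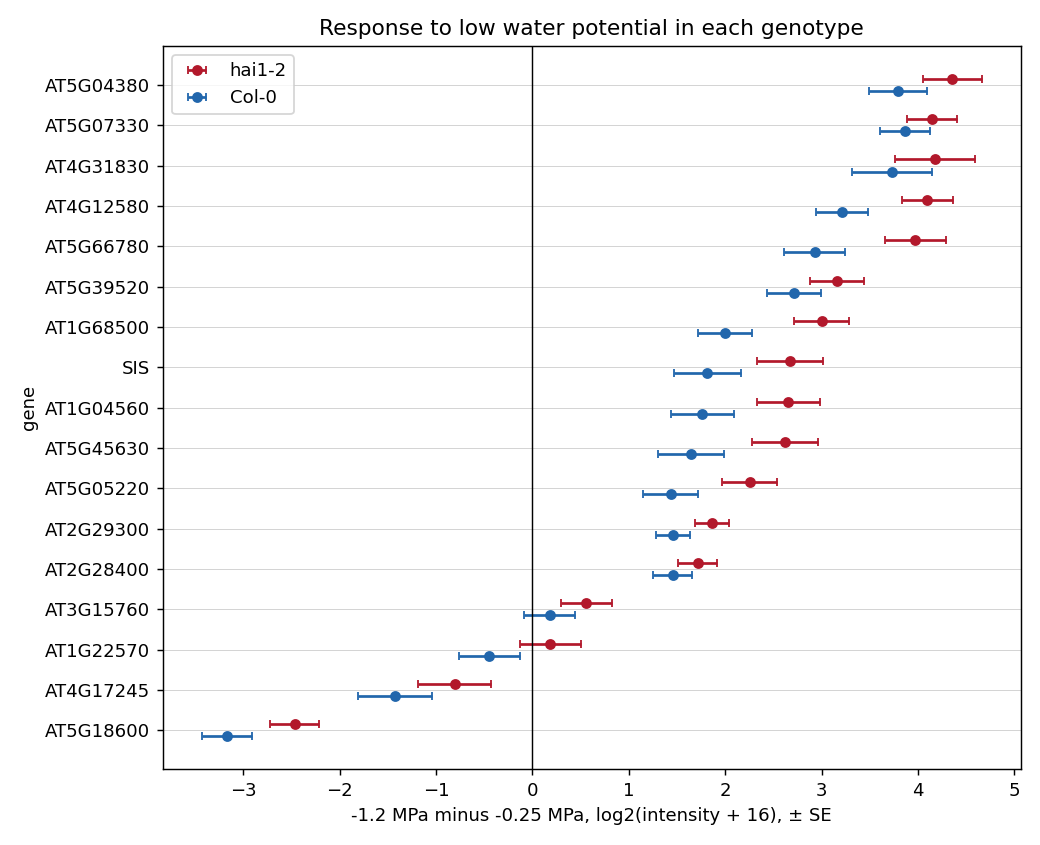
Response to low water potential (-1.2 MPa minus -0.25 MPa on log2(intensity + 16)) of the 17 genes in hai1-2 and in Col-0; points are estimates from the fit and bars are ± SE, with 3 arrays in each group. Estimates run from 4.36 for AT5G04380 to -2.47 for AT5G18600 in hai1-2, and from 3.87 for AT5G07330 to -3.17 for AT5G18600 in Col-0.

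The difference between the responses of hai1-2 and Col-0 contains the stressed gap that chose the genes, so it is given without a test. It was positive for all 17, a direction that the choice favours, and ran from 0.26 ± 0.28 for AT2G28400 to 1.05 ± 0.45 for AT5G66780 (SE). AT5G07330 (0.28 ± 0.37) and AT2G28400 had the smallest values, and both also had positive differences in each of the 3 control experiments. The median response was 2.66 in hai1-2 and 1.76 in Col-0 over the 17 genes, against 0.07 in each over all probe sets tested. The gap between genotypes at -1.2 MPa, which chose the genes, had a median of 0.93 in experiment 1, 0.74 in experiment 2 and 0.74 in experiment 3, and the ratio of group means ran from 1.57 for AT2G29300 to 2.47 for AT5G05220. The widest gap of a gene fell in experiment 1 for 7 genes, in experiment 2 for 5 and in experiment 3 for 5, so no single experiment held the widest gap of most of them.

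On control plates the question was whether these genes already differed between genotypes, on arrays whose difference the selection did not use. None of the 17 passed, nor did any of the 17059 probe sets tested (limma, 0% called). At an unadjusted p under 0.05 there were 2 of the 17, where 3.20% of all tested passed. They were AT2G28400, 0.49 higher in hai1-2 with a 95% interval of 0.06 to 0.92 (unadjusted p = 0.0288), and AT5G07330, 0.59 higher with an interval of 0.04 to 1.15 (unadjusted p = 0.0380). The adjusted p was 0.999 for each. Over the alternatives the estimate lay between 0.37 and 0.61 for AT2G28400 and between 0.29 and 0.91 for AT5G07330, which was 0.35 without replicate 3 of Col-0 at -0.25 MPa. The estimate was positive for 13 of the 17, against 46.2% of all tested. The median difference was 0.16 over the 17 and -0.02 over all tested.

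Within single experiments the control differences scattered. hai1-2 was above Col-0 for 12 of the 17 genes in experiment 1, 10 in experiment 2 and 9 in experiment 3. It was above Col-0 in every experiment for 3 genes, AT2G28400, AT5G07330 and AT4G31830, where 10.6% of all tested were, and below it in every experiment for none, where 14.1% of all tested were. For AT4G31830 the control estimate was 0.63 with an interval of -0.25 to 1.52, at intensities near the added constant. It turned on single arrays, being 0.23 without replicate 1 and 1.06 without replicate 2 of hai1-2 at -0.25 MPa, and 1.04 without replicate 1 and 0.39 without replicate 2 of Col-0 at -0.25 MPa. For AT5G66780 the estimate was -0.23 with an interval of -0.92 to 0.45. For SIS the control difference was 0.87 in experiment 1 and -0.51 and -0.39 in experiments 2 and 3, so its estimate of -0.01 averages opposite values, with an interval of -0.75 to 0.73. For 9 of the 17 genes both genotypes had a mean below 100 on control plates, where MAS5 values are noisy and a genotype difference of the size seen under stress may not be detectable.

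**Figure D3:**
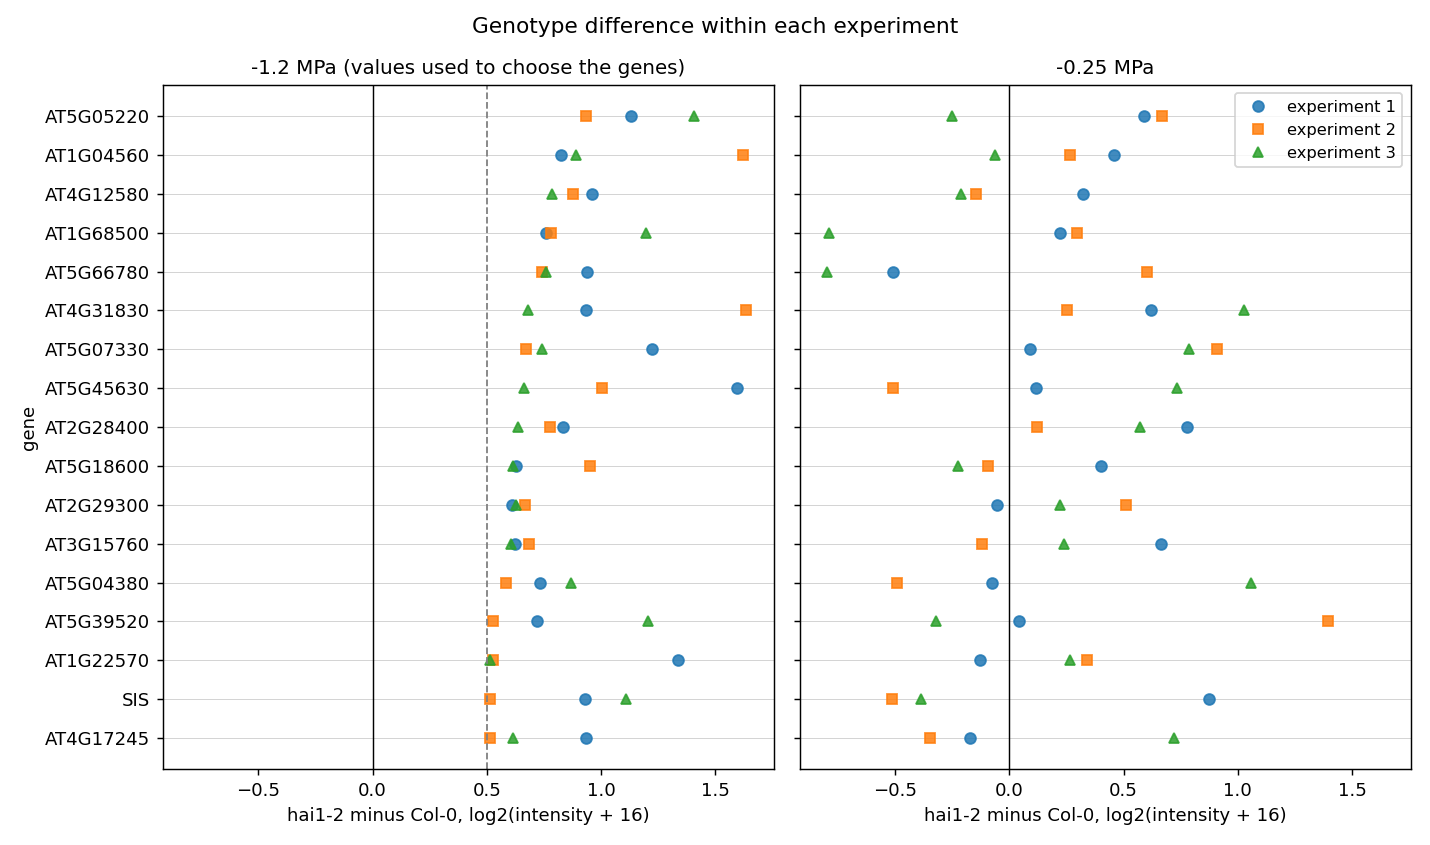
hai1-2 minus Col-0 on log2(intensity + 16) within experiments 1, 2 and 3 at -1.2 MPa (left, the values used to choose the genes; dashed line at 0.5) and at -0.25 MPa (right); each row is 1 of the 17 genes and each point 1 pair of arrays. At -1.2 MPa the points run from 0.51 to 1.63 by selection, and at -0.25 MPa they lie on both sides of 0, from -0.80 to 1.396.

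How the 17 genes lie among other genes of like response is shown by the same gap at -1.2 MPa over all probe sets tested. The gap grew with the size of the averaged response, although both quantities use the same stressed arrays. Its median was -0.14 over 283 probe sets with an averaged response below -2, 0.01 over 8270 probe sets between 0 and 1, 0.22 over 199 between 2 and 3, 0.35 over 62 between 3 and 4, and 0.43 over 58 at 4 and above. Over these 58 the median genotype difference on control plates was 0.27, against -0.02 to 0.06 in the other classes. The gap at -1.2 MPa was positive in every experiment in this last set, with medians of 0.57, 0.30 and 0.43. The 10 genes with an averaged rise of at least 2 therefore lay in a range where other probe sets were also higher in stressed hai1-2, and by the selection they stood above the 75th percentile of it. That percentile was 0.42 between 2 and 3, 0.63 between 3 and 4 and 0.69 at 4 and above. AT5G18600 at 0.73 and AT4G17245 at 0.69 lay instead among probe sets whose median gap was below 0.

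**Figure D4:**
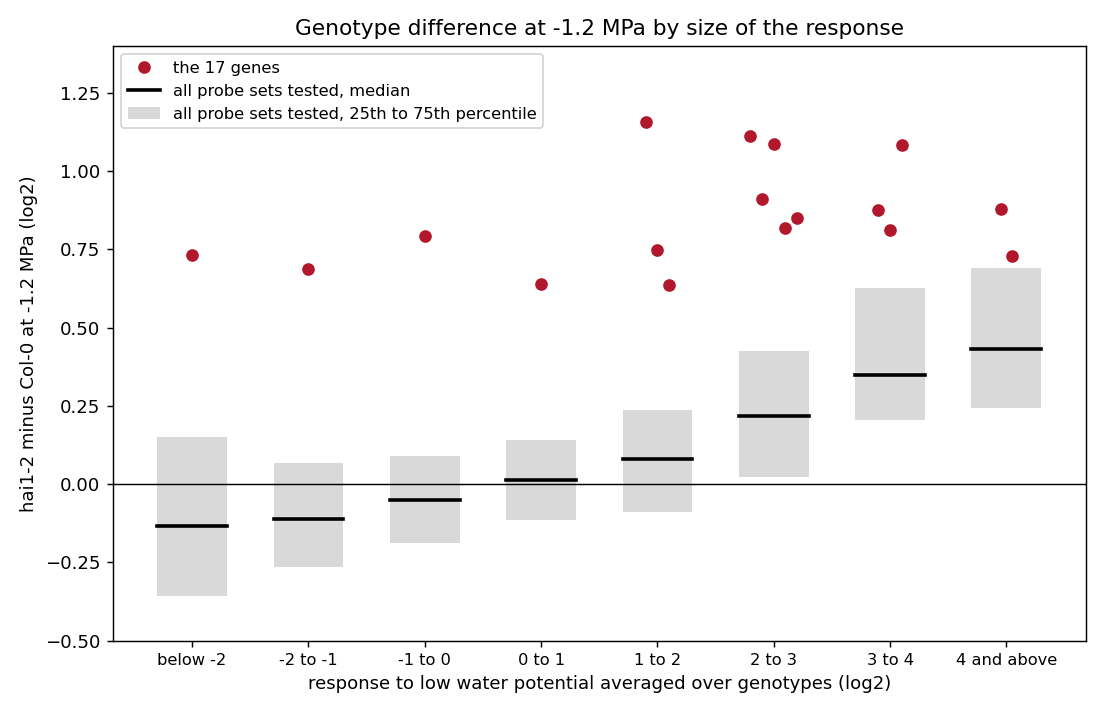
hai1-2 minus Col-0 at -1.2 MPa (log2) in 8 classes of the response to low water potential averaged over genotypes (log2); red points are the 17 genes, grey bars run from the 25th to the 75th percentile of all probe sets tested and black lines are their medians. The medians climb from -0.14 in the lowest class to 0.43 in the highest, and the 17 genes lie above the grey bar in every class.

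Values near the limits of the selection show how sharp it was. The 3 genes just inside the limit of 0.5 were AT4G17245, SIS and AT1G22570, each with a smallest gap of 0.51, and the 3 just outside were AT1G05340, AT2G46940 and AT5G53710, with 0.496, 0.488 and 0.486. Of those outside, AT1G05340 measured 4219.1, 3739.6 and 4857.2 in stressed hai1-2, against 2276.8, 2647.0 and 2807.9 in stressed Col-0. At the level limit, AT5G45630 and AT5G05220 lay just inside, with means of 204.1 and 211.7, and AT5G62800 was the nearest outside at 178 ± 30.0 in hai1-2 (SD, n = 3). With 0.4 in place of 0.5 there would be 38 genes and with 0.6 there would be 12. With 64 in place of 16 added before the log there would be 11, without AT5G45630, AT5G18600, AT5G39520, AT1G22570, SIS and AT4G17245.

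All 9 genes that met the values but were left out rose in the averaged response, where 27.9% of all tested rose. The LEA18 gene, AT2G23110, AT3G15670 and LTI30 encode proteins of the late embryogenesis abundant class, which protect dehydrating cells, and LTI30 is a dehydrin. They were left out as LEA genes, and reading that exclusion from symbols alone would keep the last 3 and give 20 genes. LTI30 measured 11893.8, 15218.2 and 14084.3 in stressed hai1-2, against 5435.0, 9544.2 and 9297.6 in stressed Col-0. The genes left out for their low control and high stressed values were THI2.1, AT1G16850, AT1G67920 and AT4G02360. Their rise follows from those limits. A further 24 probe sets with no gene or several genes in the annotation met the same level and differences. Of these, 17 rose in the averaged response and 6 fell, with a median of 2.16.

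The 17 probe sets all carry the plain suffix that Affymetrix gave to probe sets designed for 1 transcript. Of the 17 genes, 8 are on chromosome 5, 3 on each of chromosomes 1 and 4, 2 on chromosome 2 and 1 on chromosome 3. How all single-gene probe sets divide among the chromosomes was not counted, so these counts show no excess or lack. HAI1 (At5g59220) is on chromosome 5 too, and a part of its position in the gap was not tested. For 13 of the 17 a gene next to them in TAIR10.1 had a tested probe set of its own. There were 16 such neighbours, and none is among the 17. The gap of these neighbours at -1.2 MPa had a median of -0.03 and lay between -0.31 and 0.64. It was above 0.5 for 2, which were chosen after their values were seen. AT3G15770, next to AT3G15760, measured 324.6, 368.6 and 273.7 in stressed hai1-2, against 249.1, 170.7 and 187.1 in stressed Col-0, without overlap. AT4G17250, next to AT4G17245, measured 231.3, 207.2 and 200.3 in stressed hai1-2, against 90.2, 215.2 and 131.1 in stressed Col-0, with overlap. The neighbour of AT5G04380 is NAMT1, a nicotinate methyltransferase of the same family. NAMT1 rose with low water potential as well, by 2.09, but its gap between genotypes was 0.15.

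Few genes of the ABA pathway were measured by name. None of 9 clade A phosphatases and 3 of 17 ABA and drought response genes had a single-gene probe set. All 3 rose in the averaged response. The dehydrin gene LTI30 rose by 3.43 and the linker histone gene HIS1-3 by 3.67, and at -1.2 MPa the estimates of hai1-2 minus Col-0 were 0.80 and 0.40. LTI30 itself met the differences used for the selection, so its gap is no separate observation. HIS1-3 measured 4716.7, 6472.9 and 5407.0 in stressed hai1-2, against 4257.4, 3793.7 and 4428.8 in stressed Col-0, without overlap. The third, AT4G25580, measured 107.7, 70.4 and 85.1 in stressed hai1-2, against 78.7, 40.7 and 73.7 in stressed Col-0, with overlap. Of the 2 proline genes with a single-gene probe set, DELTA-OAT, an ornithine aminotransferase, rose and the proline dehydrogenase gene AT5G38710 fell. At -1.2 MPa the estimate of hai1-2 minus Col-0 was 0.43 for DELTA-OAT and -0.41 for AT5G38710. For both the stressed groups did not overlap, as for 14.1% of all tested. Of 2 senescence genes, SAG29, a sugar transporter, rose by 6.89, with an estimate of 0.24 for hai1-2 minus Col-0 at -1.2 MPa, and SAG101 did not pass at -0.39. No listed gene is among the 17, LTI30 being left out as a LEA gene.

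Summed shoot markers and summed root markers overlapped between the genotypes at -1.2 MPa. Of 23 listed photosynthesis genes, markers of the shoot, 4 had a single-gene probe set. Their summed intensity was 26733.3 to 31690.0 in stressed hai1-2 and 28071.1 to 33917.1 in stressed Col-0. Of 10 listed root genes 3 had a single-gene probe set, with a sum of 20977.7 to 23209.6 in stressed hai1-2 and 16036.1 to 23400.7 in stressed Col-0. PYK10 made up most of the root sum, with a mean of 21353.6 in stressed hai1-2, against 350.6 for EXPA7 and 302.3 for EXPA18. The sum of 3 of 6 cell division genes was 659.3 to 707.5 in stressed hai1-2, against 724.7 to 951.0 in stressed Col-0. These sums did not overlap, while of the 3 genes taken singly AUR1 and AUR2 overlapped and only PRL did not. No marker in these lists was at 0, and the shoot genes LHCB4.1 and LHCB4.2 and the root gene PYK10 were high in both genotypes. No seed storage gene of 4 had a single-gene probe set. Probe sets with no gene or several genes in the annotation were not searched for markers. Signs of RNA integrity were mixed. The ratio of 5' to 3' GAPDH signal in the second of 2 sets of control probe sets was 1.05 to 1.16 in stressed hai1-2 and 0.756 to 0.952 in stressed Col-0, without overlap, while in the first set it was 0.634 to 0.790 in stressed hai1-2 and 0.690 to 1.15 in stressed Col-0, lower in hai1-2 on average and with overlap. The part of cell division markers and of these ratios in the gap between genotypes was not tested. On replicate 3 of Col-0 at -0.25 MPa the actin ratio of the second set was 0.268, the lowest of the 12 arrays. Without that array the median control difference of the 17 genes was 0.17 and again none passed.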

How the data were processed

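The deposited values are MAS5 signal intensities on a linear scale, per the submitters' processing notes. Leaving out 2% of values at each end, every array had a mean of 500.0, as arrays scaled to a common target of that size would. The MAS5 version and any filter on calls are details not given in the sources used here. Array medians lay between 195 and 212, and no pair of arrays held identical values. Intensities were taken as log2(value + 16) without further normalization. The 64 control probe sets and the lowest 25% of the others by mean log2 were removed, which left 17059. The model had 1 mean per group over the 12 arrays and was fitted in limma (version 3.58.1; R 4.3.3, with version 1.17.8 of data.table for reading), with variances moderated along an intensity trend, two-sided tests and Benjamini-Hochberg adjustment over all probe sets tested. The fit was tested on simulated data. SE is that of the fit, and SD that of 3 intensities. Depth has no counterpart on arrays, and their number limits the precision.

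The members, gene lists and tests were chosen with earlier results of these data known. Gene names came from the platform annotation, updated through TAIR10.1. Of the 13513 probe sets with a single gene, 13436 matched a locus. All 17 members are named, since each met the rule for named genes, which takes extremes of gap, level, response and control difference. LEA genes were identified from a list of the family by locus. The series' design text has every experiment supply 1 sample of each group, and by this the replicate numbers pair samples. For hai1-2 and Col-0 arrays of the same number, deviations from group means correlated at 0.227 to 0.263 under stress and 0.128 to 0.517 without it. For the same genotype across treatments they correlated at -0.02 to 0.09. For hai1-2 and Col-0 arrays of different numbers the range was -0.136 to -0.104 under stress and -0.422 to 0.164 without it. Without stress the ranges for same and different numbers thus overlap. Alternatives were the experiment as a block, pseudocounts of 1 and 64, other filters, normalizations and variance models, and each array left out. The planned comparison of promoter motifs was not run, and no sequences were used here.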

Additional observations from a re-analysis of the deposited data

Results flagged for a closer look

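The probe sets that the annotation pairs with no gene or with several genes could not be members. Those that passed the filter were among the 17059 tested, so they are part of the shares and medians over all tested. Among them, 24 met the same level and the same 3 differences at -1.2 MPa as the named genes, and 2 of these were low on all control arrays and high on all stressed arrays. Their median hai1-2 minus Col-0 difference at -0.25 MPa was 0.07.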

How the results depend on the processing

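With each array left out, the averaged response of the 17 genes gave 13 to 14 rises and 2 falls. Over all 17059 tested, 4307 to 4937 rose and 3621 to 3847 fell in these fits. With the experiment as a replicate block 13 of the 17 rose and 2 fell, where 4873 and 4028 of all tested did. On control plates 0 of the 17 genes passed under every alternative run, and of all tested 0 or 1 did. With array weights or without replicate 1 of hai1-2 at -0.25 MPa the fourteenth rise was AT3G15760, at 0.43 (adjusted p = 0.0410) and 0.54. With the lower 50% of probe sets removed, 8 of the 17 genes were tested, with a median of 0.98. Of these 8, 4 rose and 2 fell, where 3466 and 2947 of all 11373 tested did. With 64 added before the log the median was 1.68 and the selection held 11 genes. Other limits gave 38 genes (0.4), 12 (0.6), 25 (level 100) and 14 (level 400), and 1 added, quantile normalization and median centring gave 21, 19 and 21 genes, all 17 among them in these 3. Leaving out single arrays moved the median averaged response between 2.06 and 2.26 and the median control difference between 0.09 and 0.31, and the other alternatives kept the median control difference between 0.11 and 0.24. No called value changed sign. With 3 arrays per group and control intensities near the added constant, differences on control plates are poorly resolved for the dimmest genes.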
